A study of Homo sapiens with 4 samples.

Results

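The genes at the tip of the long arm of chromosome 3 are described here in human 293FT cells labelled as mutant (NIPBLmut) or wild type (NIPBLwt) for NIPBL. The members are the protein-coding genes whose start lies above 180 Mb and up to 200 Mb on chromosome 3 (GENCODE release 29, GRCh38) and whose expected counts sum to at least 40 over the 4 libraries. The interval holds 132 protein-coding genes, of which 97 met that count limit, out of 58174 genes listed in each table. The interval was chosen from the NIPBLmut over NIPBLwt fold changes of these same libraries. Member fold changes between those groups are therefore a description, without a test of the list.

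The study compared total RNA of NIPBLmut 293FT cells (2 libraries) with that of NIPBLwt 293FT cells (2 libraries), and its title names the Cornelia de Lange and CHOPS syndromes. 293FT is a fast-growing derivative of the human embryonic kidney line HEK293 that carries the SV40 large T antigen, and every library came from the same serum-fed culture conditions with ribosomal RNA removed. NIPBL encodes the factor that loads the cohesin ring onto DNA. The labels give neither the kind of NIPBL mutation nor the number of clones, and they do not say that the 2 libraries of a group came from separate cultures, so the spread between libraries may be technical.

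The tip of 3q carries many genes that nearly every dividing cell uses, including translation factors, a proteasome subunit, an adaptor subunit of clathrin-coated pits and the mitochondrial fusion enzyme OPA1. Between these lie genes of restricted expression, such as SOX2, a transcription factor of stem and neural progenitor cells, CLDN1, a tight junction protein, and FGF12, an intracellular relative of the fibroblast growth factors that binds sodium channels. The distal arm is well known in cancer biology because SOX2 and its neighbours are often gained together in squamous carcinomas.

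The NIPBLmut libraries summed to 31932304 and 32768728 expected counts, and the NIPBLwt libraries to 31545743 and 33161120. NIPBL itself was at 61.0 and 62.0 CPM (counts scaled to library size and, by TMM, to library composition) in the NIPBLmut libraries and at 41.8 and 44.4 CPM in the NIPBLwt libraries, a log2 fold change of 0.51 that was not called (edgeR adjusted p = 0.057). The labels do not say whether the mutation should change its RNA. The 2 NIPBLwt libraries stood much further apart than the 2 NIPBLmut libraries. The chi-square statistic per gene between replicates was 3.97 for NIPBLmut and 44.6 for NIPBLwt. Of 8 genes listed as marks of the line, edgeR called 3 lower in NIPBLmut (LIN28B, at a mean of 108 CPM in NIPBLmut and 248 CPM in NIPBLwt, VIM at 290 and 441 CPM, and NEFM at 1.08 and 68.3 CPM) and 1 higher (KRT8, at 107 and 60.4 CPM). NEFL, KRT18 and SALL2 were present in both groups and not called, and PAX2 was low, at a mean of 0.613 CPM in NIPBLmut and 0.456 CPM in NIPBLwt. The part of these marker differences in the results that follow was not tested. Among the markers of other cell types reported here, CD3E and HBB were at 0 in all 4 libraries, and EPCAM was the highest and called higher, at a mean of 11.4 CPM in NIPBLmut and 5.03 CPM in NIPBLwt.

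The 4 sequences printed here are RefSeq promoter windows (GRCh38.p14) of the 250 bases before the start of transcription. They are shown because LIPH and CLDN1 were among the members furthest above the others, while OSTN and TFRC were the only members with both NIPBLmut libraries below both NIPBLwt libraries. Capitals mark exact matches on either strand to TATAAA, the TATA box letters, GGGCGG, the GC box letters, and CCAAT. The windows lie on the minus strand at chr3:185552589-185552838 (LIPH), on the minus strand at chr3:190322447-190322696 (CLDN1), on the plus strand at chr3:191198991-191199240 (OSTN) and on the minus strand at chr3:196082091-196082340 (TFRC).
LIPH: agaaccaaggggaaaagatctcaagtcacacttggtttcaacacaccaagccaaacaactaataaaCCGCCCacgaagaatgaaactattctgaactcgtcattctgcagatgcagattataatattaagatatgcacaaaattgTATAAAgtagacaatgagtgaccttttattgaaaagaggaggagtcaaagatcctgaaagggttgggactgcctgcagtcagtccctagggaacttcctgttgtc
CLDN1: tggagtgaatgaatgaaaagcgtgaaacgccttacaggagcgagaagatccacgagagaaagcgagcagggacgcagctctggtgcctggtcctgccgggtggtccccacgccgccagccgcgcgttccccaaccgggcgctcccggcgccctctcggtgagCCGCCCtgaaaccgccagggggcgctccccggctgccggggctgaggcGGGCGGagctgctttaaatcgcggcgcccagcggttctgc
OSTN: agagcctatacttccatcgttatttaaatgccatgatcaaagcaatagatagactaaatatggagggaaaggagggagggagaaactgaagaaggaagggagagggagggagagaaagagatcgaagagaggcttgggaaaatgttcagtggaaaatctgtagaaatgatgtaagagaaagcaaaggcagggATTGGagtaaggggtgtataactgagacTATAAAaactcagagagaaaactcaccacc
TFRC: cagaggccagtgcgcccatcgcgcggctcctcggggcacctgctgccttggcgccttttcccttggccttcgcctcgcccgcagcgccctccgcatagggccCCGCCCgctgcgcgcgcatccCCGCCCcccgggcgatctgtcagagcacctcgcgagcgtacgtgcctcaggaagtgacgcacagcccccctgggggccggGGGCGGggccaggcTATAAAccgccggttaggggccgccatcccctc
The 2 high members and the 2 low members do not separate by these letters. CLDN1 held 28 CG pairs and TFRC 29, both typical of promoters rich in CG, whereas LIPH held 3 and OSTN 2. TATAAA was found in the windows of LIPH, OSTN and TFRC and not in that of CLDN1. A match describes letters only and is not evidence of a bound factor.

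RefSeq windows could be matched by symbol for 82 of the 97 members. GGGCGG was present in 70.7% of the member windows and in 41.6% of the windows of all 27305 genes with an entry. CCAAT was as frequent in the member windows as in all windows (32.9% in each), and TATAAA was present in 7.32% of member windows and in 11.3% of all. The median window held 21.0 CG pairs among members and 10.0 among all genes. The median log2 fold change was 0.42 over the 10 members whose window held fewer than 10 CG pairs and 0.64 over the other 72. No test of these shares was made. The 27305 genes were all those with an entry, whereas members were limited to protein-coding genes that reached the count limit. Where a gene had several windows, the choice also differed. For members it was the window nearest the GENCODE start, and for all genes the window of lowest coordinate. The effect of that choice on these shares was not tested. Whether member windows differ from those of other expressed protein-coding genes was not tested.

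Most genes of the 3q tip had more RNA in the NIPBLmut libraries. The median member was 1.56-fold higher in NIPBLmut than in NIPBLwt, a log2 fold change of 0.64, the quartiles of the members were 0.37 and 0.87, and the range was -0.68 to 2.65. Of the 97 members, 93 had a log2 fold change above 0, from genes of translation to receptors and transcription factors. Over the 14456 tested protein-coding genes of the whole table the median was -0.01 and 49.5% were above 0. In bulk RNA, more cells of a type and more RNA per cell cannot be told apart.

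Both NIPBLmut libraries lay above both NIPBLwt libraries for 81 members (83.5%), against 32.3% of all tested genes. For 2 members, OSTN and TFRC, both NIPBLmut libraries lay below both NIPBLwt libraries, against 30.8% of all tested genes. With edgeR's quasi-likelihood test and Benjamini-Hochberg adjustment over all 18984 tested genes, 29 members (29.9%) had an adjusted p below 0.05 with a higher level in NIPBLmut, and 0 were called lower. The same rule called 5.81% of all tested genes, of which 3.71% higher and 2.1% lower. Because the interval was picked on this contrast, nothing is read from that difference in shares. At an unadjusted p below 0.05, 69 members passed and 0 of them were lower, and DESeq2 called 44 members higher and 0 lower, against 6.44% and 5.84% of the genes it tested. The number of members called depended strongly on single libraries: 7 were called higher without NIPBLmut library 1, 6 without NIPBLmut library 2, 76 without NIPBLwt library 1 and 85 without NIPBLwt library 2. Over all tested genes these fits called 2.1%, 1.7%, 29.8% and 21.6% higher, in the same order. A fit without 1 NIPBLwt library takes its spread from the close NIPBLmut pair alone, and then 5 members were called lower without NIPBLwt library 1 (TFRC, EIF4G1, LSG1, TRA2B and NCBP2) and 1 without NIPBLwt library 2 (OSTN), against 29.9% and 20.3% of all tested genes.

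The median was close to the same whichever libraries were set against each other. NIPBLmut library 1 minus NIPBLwt library 1 gave a member median of 0.63 on the log2 scale, and against NIPBLwt library 2 it gave 0.65. NIPBLmut library 2 gave 0.61 against NIPBLwt library 1 and 0.64 against NIPBLwt library 2. Within groups the members did not move as a block. The median of NIPBLmut library 2 minus library 1 was 0.01 over members, and that of NIPBLwt library 2 minus library 1 was -0.04, with 46 members above 0. These within-group differences were not used to choose the interval. Single genes moved more between the NIPBLwt libraries, with a median size of 0.28 over members, than between the NIPBLmut libraries, where it was 0.07. Over all tested genes these sizes were 0.32 in NIPBLwt and 0.10 in NIPBLmut.

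The spread among members depended on the NIPBLwt library as well. Set against NIPBLwt library 1, the NIPBLmut mean was above 0 for 93 members, and the interquartile range was 0.43 log2 units wide. Set against NIPBLwt library 2 it was above 0 for 86 members, and the interquartile range was 0.77 wide. Over all tested protein-coding genes it was 0.52 wide against library 1 and 0.85 against library 2.

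Along chromosome 3 the higher values were concentrated distal to 180 Mb. Over the tested protein-coding genes of each 5 Mb bin, the median log2 fold change was -0.12 at 170 to 175 Mb (14 genes) and 0.25 at 175 to 180 Mb (12 genes). It was 0.71 at 180 to 185 Mb (35 genes, all above 0), 0.76 at 185 to 190 Mb (23 genes), 0.65 at 190 to 195 Mb (14 genes) and 0.45 at 195 to 200 Mb (28 genes). These bins also hold 3 tested genes that did not reach the count limit. Elsewhere on chromosome 3 the 703 tested genes gave a median of 0.06, with 58.2% above 0. Among 280 windows of 10 Mb with at least 15 tested protein-coding genes, the 2 windows of the tip ranked first and second, at 0.73 for 180 to 190 Mb and 0.55 for 190 to 200 Mb. The next were on chromosome 2 at 0 to 10 Mb (0.52) and 80 to 90 Mb (0.47), and on chromosome 5 at 10 to 20 Mb (0.47). The lowest window was on chromosome 2 at 240 to 250 Mb (-0.64). Because the interval was chosen from these same fold changes, the rank of its windows was largely fixed in advance.

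**Figure D1:**
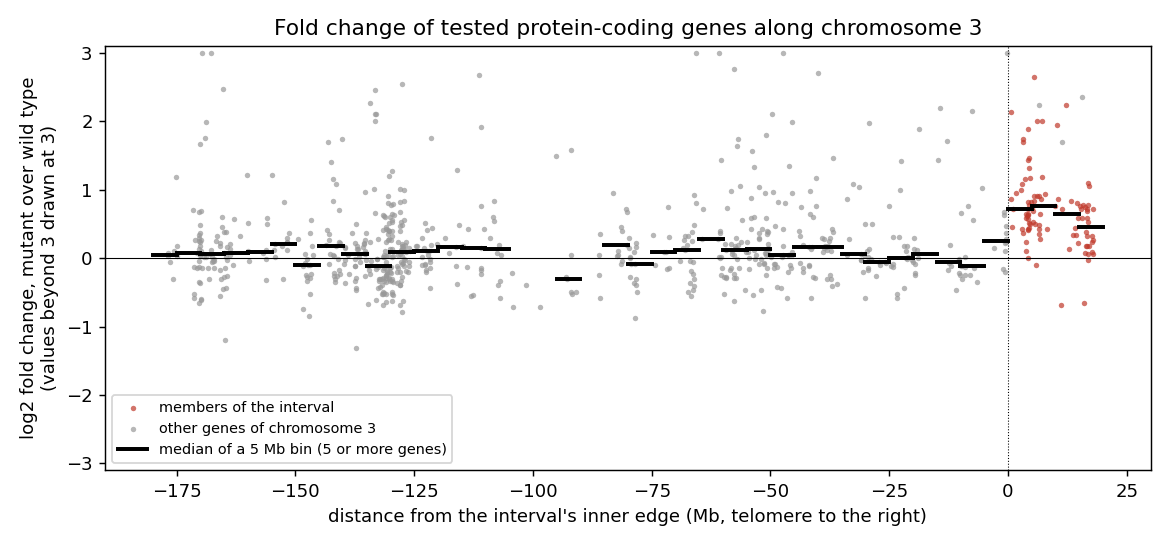
The log2 fold change (NIPBLmut over NIPBLwt, vertical axis) of each tested protein-coding gene of chromosome 3 is plotted against the distance of its start from 180 Mb (horizontal axis, in Mb, telomere to the right), with members in red, other genes in grey and medians of 5 Mb bins as bars. The bins distal to 180 Mb have medians of 0.45 to 0.76, against 0.06 over the rest of the chromosome.

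The plot along the chromosome shows that the level of the shift was not uniform within the tip. Bins of 2.5 Mb gave medians of 0.64 at 182.5 to 185 Mb (30 genes) and 0.78 at 185 to 187.5 Mb (20 genes). The bin at 180 to 182.5 Mb gave 0.87 (5 genes). The highest was 1.28 at 190 to 192.5 Mb (6 genes), next to 0.39 at 192.5 to 195 Mb (8 genes). That highest median lies midway between IL1RAP (0.87) and UTS2B (1.69, SE 0.75). UTS2B is not a member, because its 33 expected counts did not reach the count limit. The last 2.5 Mb bin, with 6 genes, had a median of 0.25, although all 6 were above 0. Across the 97 members the Spearman correlation of log2 fold change with position was -0.32, given as a description because all members share the same 4 libraries. The 53 members on the minus strand had a median of 0.71, and the 44 on the plus strand 0.55.

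The 180 Mb limit does not mark a sharp step. Just proximal to it, PIK3CA, the catalytic subunit of a lipid kinase of growth factor signalling, had a log2 fold change of 0.68, with 46.2 and 45.3 CPM in the NIPBLmut libraries and 26.6 and 30.7 CPM in the NIPBLwt libraries. Next to it KCNMB3, a potassium channel subunit, was at 0.63, with 3.14 and 3.36 CPM in NIPBLmut and 2.29 and 1.91 CPM in NIPBLwt. The other genes there were lower: ZNF639 was at 0.22, MFN1 at 0.11, GNB4, a G protein beta subunit, at -0.20, ACTL6A at 0.28, MRPL47, a mitochondrial ribosomal protein, at 0.47, NDUFB5 at 0.36 and USP13 at 0.23. PEX5L, which lies closest to the limit, was at 3.85, but it was near the floor, with 0.533 and 0.517 CPM in NIPBLmut libraries and 0.0645 and 0 CPM in NIPBLwt libraries. Just inside the limit TTC14 was at 0.87, CCDC39 at 2.14, FXR1 at 0.46, DNAJC19 at 0.72 and SOX2 at 0.95. At the telomeric end FYTTD1 was at 0.32, LRCH3 at 0.23, IQCG at 0.27, RPL35A at 0.06 and LMLN at 0.72. At the count limit, the members with the smallest sums were DGKG (55.6 expected counts), NRROS (116) and AC131160.1 (119), and the genes just under it were GMNC (34), UTS2B (33) and MUC4 (29). Of the 35 protein-coding genes left out for low counts, 10 had 0 counts in all 4 libraries.

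The fold change was larger for weakly expressed genes, in the interval and elsewhere. Below a mean of 2 CPM the members' median was 1.20 on the log2 scale (12 genes), against 0.71 for other tested protein-coding genes of the same level. Members of 2 to 10 CPM had 0.74 (17 genes) against 0.21, and members of 10 to 50 CPM had 0.71 (30 genes) against -0.04. Members of 50 CPM or more had 0.43 (38 genes) against -0.15. The median of members was above that of other genes in every class, by 0.49, 0.53, 0.75 and 0.58 in the order of rising level. Whether these gaps differ between classes was not tested. Across members the Spearman correlation of log2 fold change with mean CPM was -0.46, and across all tested protein-coding genes it was -0.38.

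**Figure D2:**
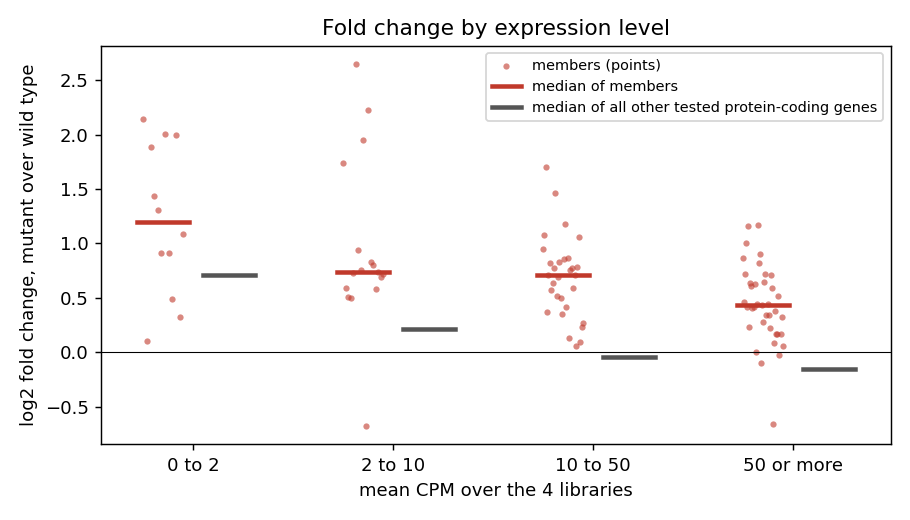
Log2 fold changes (NIPBLmut over NIPBLwt) are shown by class of mean CPM for the members, on the left of each pair, and for all other tested protein-coding genes, on the right. The member medians are 1.20, 0.74, 0.71 and 0.43, and those of the other genes 0.71, 0.21, -0.04 and -0.15.

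The shift of each member was compared with the median of all members in units of its own standard error (SE). Of the 97 members, 60 lay within 2 SE of the median, 16 lay more than 2 SE above it and 21 more than 2 SE below it. More than 3 SE above were FGF12, LIPH, CLDN1, VWA5B2, MAGEF1, MCCC1, LAMP3, RPL39L, CCDC39, ATP11B, MCF2L2 and DGKG. More than 3 SE below were RPL35A, OSTN, TFRC, DLG1, RUBCN, PAK2, NCBP2, YEATS2, RNF168, TRA2B, PCYT1A, LRCH3 and EIF4A2. These are descriptions of the spread within the interval, without a test.

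**Figure D3:**
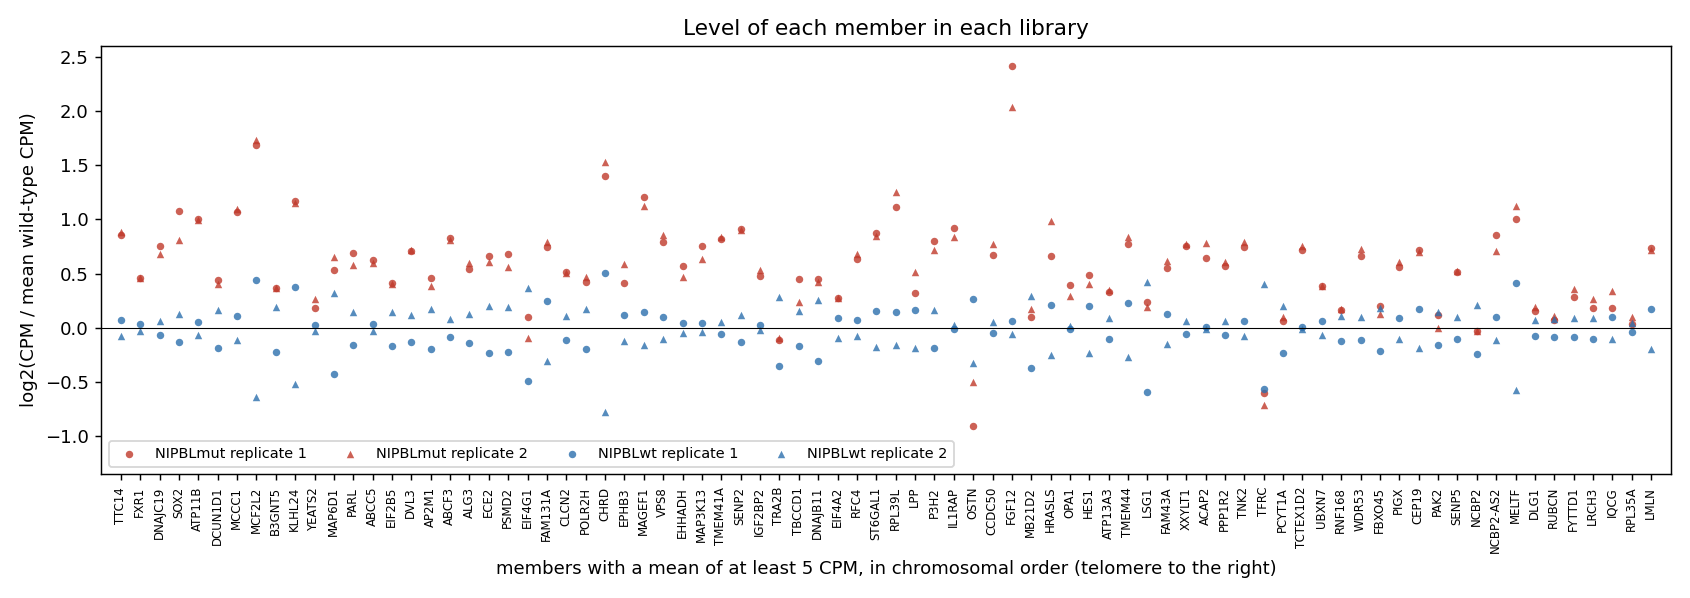
Each of the 80 members with a mean of at least 5 CPM is shown in order of position, with the log2 of its CPM in each library over the mean CPM of the 2 NIPBLwt libraries on the vertical axis. The 2 NIPBLmut libraries lie close together for most members, FGF12 (15.2 and 11.7 CPM) being an exception, and the 2 NIPBLwt libraries part widely for genes such as TFRC, EIF4G1 and LSG1.

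Among the members with the highest fold changes, FGF12 (ENSG00000114279) was at 15.2 and 11.7 CPM in the NIPBLmut libraries, against 2.97 and 2.74 CPM in the NIPBLwt libraries. Its log2 fold change was 2.23 (SE 0.21), and the groups were far apart. LIPH, a phospholipase that makes lysophosphatidic acid, was at 4.29 and 4.57 CPM in NIPBLmut and at 0.838 and 0.569 CPM in NIPBLwt, a log2 fold change of 2.65 (SE 0.30). CLDN1 was at 5.09 and 5.31 CPM in NIPBLmut and at 1.55 and 1.14 CPM in NIPBLwt, a log2 fold change of 1.95 (SE 0.26). All 3 are genes of restricted expression, and they were low in the NIPBLwt libraries. LAMP3, a lysosomal membrane protein, was at 4.67 and 5.60 CPM in NIPBLmut and at 1.90 and 1.17 CPM in NIPBLwt. CCDC39, needed to assemble the dynein arms of motile cilia, was at 2.37 and 1.84 CPM in NIPBLmut and at 0.645 and 0.301 CPM in NIPBLwt. Its exons overlap other annotated genes, as do those of VWA5B2 and ALG3, which share exon bases on opposite strands. The library kit keeps strand but the counting setting is not given in the sources used here, so such pairs are uncertain.

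Genes at a moderate or high level among the larger fold changes are less exposed to counting error. MAGEF1, a MAGE family protein that works with a ubiquitin ligase, was at 110 and 104 CPM in NIPBLmut and at 52.5 and 42.7 CPM in NIPBLwt. ATP11B, a phospholipid flippase, was at 216 and 215 CPM in NIPBLmut and at 112 and 103 CPM in NIPBLwt, a log2 fold change of 1 (SE 0.11). MCCC1, a subunit of the leucine-breakdown enzyme methylcrotonyl-CoA carboxylase, was at 62.4 and 63.7 CPM in NIPBLmut and at 32.1 and 27.6 CPM in NIPBLwt. In each of these 3 the groups did not overlap, and the libraries of a group differed far less than the groups did. KLHL24, a substrate adaptor of a cullin ligase, was at 94.7 and 93.6 CPM in NIPBLmut and at 54.9 and 29.4 CPM in NIPBLwt, and the difference of the NIPBLmut mean was 0.78 from NIPBLwt library 1 and 1.68 from library 2 on the log2 scale. CHRD, a secreted antagonist of bone morphogenetic proteins, was at 14.4 and 15.8 CPM in NIPBLmut and at 7.74 and 3.18 CPM in NIPBLwt, with differences of 0.96 and 2.22.

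In 4 members the log2 fold change was below 0, and none of them was called. TFRC (ENSG00000072274), the transferrin receptor that brings iron into the cell, was at 260 and 241 CPM in the NIPBLmut libraries and at 267 and 522 CPM in the NIPBLwt libraries. Its log2 fold change of -0.66 (SE 0.31) rests on NIPBLwt library 2: the NIPBLmut mean was 0.09 log2 units below NIPBLwt library 1 and 1.06 below library 2. OSTN, which encodes the secreted peptide osteocrin, was at 3.88 and 5.14 CPM in NIPBLmut and at 8.70 and 5.79 CPM in NIPBLwt, a log2 fold change of -0.68 (SE 0.28). TRA2B, a splicing regulator, was at 284 and 287 CPM in NIPBLmut and within the NIPBLwt range of 240 and 374 CPM. NCBP2, the small subunit of the nuclear cap-binding complex, was at 81.6 CPM in both NIPBLmut libraries and at 70.1 and 96.0 CPM in the NIPBLwt libraries. TRA2B (-0.10) turned to 0.08 when libraries were scaled by total count and to 0.25 without NIPBLwt library 2. NCBP2 (-0.03) turned to 0.22 without NIPBLwt library 2, and to 0.16 with total count, 0.07 with upper quartile scaling and 0.18 with TPM, the deposited length-scaled level.

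A further set of members had near-equal levels in both groups. RPL35A (chr3:197949980-197956610), a protein of the large ribosomal subunit, was at 509 and 532 CPM in NIPBLmut and at 484 and 513 CPM in NIPBLwt, a log2 fold change of 0.06 (SE 0.11). PAK2, a kinase of cytoskeletal signalling, was at 22.7 and 20.9 CPM in NIPBLmut and at 18.7 and 23.1 CPM in NIPBLwt. RUBCN, a negative regulator of autophagy, was at 16.5 and 16.9 CPM in NIPBLmut and at 14.8 and 16.6 CPM in NIPBLwt. PAK2 (0.06) turned to -0.08 with effective length offsets, and RUBCN (0.09) turned to -0.01 without NIPBLwt library 1. EIF4G1 was at 593 and 520 CPM in NIPBLmut and at 394 and 717 CPM in NIPBLwt, so its log2 fold change of 0.00 (SE 0.29) joins a difference of 0.49 from NIPBLwt library 1 and of -0.37 from library 2. RPL35A thus had near-equal levels in all 4 libraries, whereas the NIPBLwt libraries disagreed on EIF4G1.

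Per unit of length, the members with the most RNA were RPL35A (mean 834 TPM over the 4 libraries), EIF4A2 (213), AP2M1 (185), EIF4G1 (166), TRA2B (148), PSMD2 (136), FXR1 (112), POLR2H (93.4), OPA1 (89.8) and TFRC (88.9). These 10 genes serve translation, splicing, protein breakdown, transcription, mitochondria and uptake at the cell surface.

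Translation genes (9 members) had a median of 0.41 on the log2 scale, with 9 at or above 0 and 2 called higher. Counts of calls in this and the other function groups stand beside 29.9% of all members and 3.71% of all tested genes called higher. Both NIPBLmut libraries lay above both NIPBLwt libraries for 83.5% of members and 32.3% of all tested genes. The groups were not tested against these shares. ABCF3, an ATPase of the ABCF family, was called higher, at 58.1 and 57.6 CPM in NIPBLmut and 30.9 and 34.7 CPM in NIPBLwt. RPL39L, a close copy of the ribosomal protein RPL39 from which reads may be misassigned, was at 26.6 and 29.3 CPM in NIPBLmut and at 13.6 and 11.0 CPM in NIPBLwt. The initiation factors sat lower in the range. EIF4A2, the RNA helicase of the cap-binding complex, was at 499 and 500 CPM in NIPBLmut and at 440 and 386 CPM in NIPBLwt. Several small nucleolar RNA genes lie within its annotated span on the same strand. EIF2B5, the catalytic subunit of the exchange factor eIF2B, was at 93.1 and 92.6 CPM in NIPBLmut and at 62.2 and 77.5 CPM in NIPBLwt. FXR1, an RNA-binding relative of the fragile X protein, was at 244 CPM in both NIPBLmut libraries and at 181 and 173 CPM in the NIPBLwt libraries. LSG1, a GTPase of ribosome maturation, overlapped between groups, at 63.9 and 61.8 CPM in NIPBLmut and 35.8 and 72.4 CPM in NIPBLwt.

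Of the 8 genes of transcription, RNA processing and replication, 6 were above 0 and 3 were called higher (TTC14, RFC4 and MAGEF1), and the median was 0.38. TRA2B and NCBP2 were the 2 below 0. MAGEF1, listed here, also acts with a ubiquitin ligase, and without it the median of the other 7 was 0.32. RFC4, a subunit of the clamp loader that places PCNA on DNA, was at 125 and 129 CPM in NIPBLmut and at 84.8 and 76.5 CPM in NIPBLwt. POLR2H, a subunit shared by the nuclear RNA polymerases, was at 96.9 and 100 CPM in NIPBLmut and at 63.3 and 81.7 CPM in NIPBLwt, without overlap between the groups. YEATS2, the histone reader of an acetyltransferase complex, was nearer to equal, at 81.4 and 86.5 CPM in NIPBLmut and 73.3 and 70.3 CPM in NIPBLwt.

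Among 9 members of the ubiquitin, SUMO and proteasome group, 9 were above 0, the median was 0.52, and SENP2 was called higher. With MAGEF1 added the median was 0.57 over 10 genes. SENP2, a SUMO protease, was at 140 and 139 CPM in NIPBLmut and at 68.1 and 81.2 CPM in NIPBLwt. Its relative SENP5 was at 153 and 154 CPM in NIPBLmut and at 99.7 and 115 CPM in NIPBLwt. PSMD2, a subunit of the proteasome's regulatory particle, was at 358 and 329 CPM in NIPBLmut and at 191 and 255 CPM in NIPBLwt. These 3 were higher without overlap, as were 83.5% of all members and 32.3% of all tested genes. RNF168, a ubiquitin ligase of the DNA damage response, was at 58.9 and 59.5 CPM in NIPBLmut and at 48.4 and 56.7 CPM in NIPBLwt. FBXO45 (0.17) had overlapping groups and turned to -0.04 without NIPBLwt library 1, and its exons overlap those of WDR53 on the other strand.

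All 5 mitochondrial and peroxisomal members had both NIPBLmut libraries above both NIPBLwt libraries, as did 83.5% of all members and 32.3% of all tested genes. Their median was 0.64, and DNAJC19 and MCCC1 were called higher. DNAJC19, a cochaperone of the inner mitochondrial membrane, was at 67.0 and 63.6 CPM in NIPBLmut and at 37.9 and 41.4 CPM in NIPBLwt. OPA1 was at 235 and 220 CPM in NIPBLmut and at 178 and 181 CPM in NIPBLwt, a log2 fold change of 0.34 (SE 0.11). PARL, a rhomboid protease of the inner mitochondrial membrane, was at 64.3 and 59.8 CPM in NIPBLmut and at 35.7 and 44.1 CPM in NIPBLwt. EHHADH, an enzyme of peroxisomal fatty acid oxidation, had a log2 fold change of 0.52.

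Of the 12 members of membrane traffic and transport, 11 were above 0 and 6 were called higher (ATP11B, LAMP3, ABCC5, VPS8, TMEM41A and ACAP2), with a median of 0.66. VPS8, a subunit of the CORVET tethering complex of early endosomes, was at 93.1 and 97.4 CPM in NIPBLmut and at 57.8 and 50.1 CPM in NIPBLwt. ABCC5, an exporter of organic anions, was at 80.4 and 79.0 CPM in NIPBLmut and at 53.3 and 50.9 CPM in NIPBLwt. AP2M1, the cargo-binding subunit of the AP-2 adaptor, was at 341 and 323 CPM in NIPBLmut and at 216 and 280 CPM in NIPBLwt. TFRC, a cargo of AP-2, was the member of this group below 0.

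Glycosylation, endoplasmic reticulum and lipid synthesis genes had 8 of 9 members above 0, a median of 0.57, and 2 called higher. The list holds OSTN, the gene of a secreted peptide and its 1 member below 0, and the other 8 had a median of 0.58. Called higher were ST6GAL1, which adds sialic acid, and XXYLT1, which adds xylose. ST6GAL1 was at 22.6 and 22.1 CPM in NIPBLmut and at 13.7 and 10.9 CPM in NIPBLwt. XXYLT1 was at 40.4 and 41.0 CPM in NIPBLmut and at 23 and 25 CPM in NIPBLwt. PCYT1A, the rate-limiting enzyme of phosphatidylcholine synthesis, overlapped between groups, at 53.4 and 54.7 CPM in NIPBLmut and 43.3 and 58.7 CPM in NIPBLwt.

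All 13 signalling and scaffold genes were above 0, with a median of 0.69, and 6 were called higher (DVL3, MAP3K13, TNK2, IL1RAP, FGF12 and PPP1R2). DVL3, a transducer of Wnt signals, was at 47.9 and 48.2 CPM in NIPBLmut and at 26.9 and 31.9 CPM in NIPBLwt. IL1RAP, the shared coreceptor of the interleukin-1 family, was at 19.3 and 18.2 CPM in NIPBLmut and at 10.1 and 10.4 CPM in NIPBLwt. TNK2, a non-receptor tyrosine kinase, was at 32.1 and 33.1 CPM in NIPBLmut and at 20.0 and 18.1 CPM in NIPBLwt. DVL3 (0.71) and TNK2 (0.77) lay close to the median of the interval, and IL1RAP (0.87) at its upper quartile. DLG1, a scaffold of cell polarity, was at 60.0 and 61.4 CPM in NIPBLmut and at 51.2 and 56.6 CPM in NIPBLwt, a log2 fold change of 0.17 (SE 0.12).

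The 4 transcription factors had a median of 0.92, and SOX2 (ENSG00000181449, chr3:181711924-181714436, plus strand) was called higher. SOX2 was at 45.9 and 38.1 CPM in NIPBLmut and at 19.8 and 23.7 CPM in NIPBLwt, a log2 fold change of 0.95 (SE 0.16). HES1, a repressor downstream of Notch, was at 97.1 and 91.7 CPM in NIPBLmut and at 79.8 and 59.0 CPM in NIPBLwt. BCL6, a repressor of germinal centre B cells, was at 6.57 and 5.86 CPM in NIPBLmut and at 3.84 and 2.64 CPM in NIPBLwt. ETV5, an ETS family factor whose NIPBLwt library 2 was level with NIPBLmut library 2, was at 2.40 and 2.04 CPM in NIPBLmut and at 0.322 and 2.04 CPM in NIPBLwt. Its log2 fold change of 0.91 (SE 0.74) is 1 of the 2 middle values behind the median, and it shares exon bases with DGKG. TP63, a regulator of squamous epithelium in the same interval, did not reach the count limit. Of 8 genes listed under adhesion, junction and mucins, 3 were members (CLDN1, P3H2 and LPP, median 0.76). P3H2, a prolyl hydroxylase, is not itself a junction or mucin gene, and the median is its own value. Of 8 secreted plasma and hormone genes 2 were members (THPO and MASP1, median 1.66, neither called). THPO was at 1.86 and 1.47 CPM in NIPBLmut and at 1.06 and 0.268 CPM in NIPBLwt. MASP1 was at 1.6 and 1.95 CPM in NIPBLmut and at 0.709 and 0.167 CPM in NIPBLwt. The NIPBLmut means of THPO and MASP1 were 0.61 and 1.25 log2 units above NIPBLwt library 1, and 2.38 and 3.0 above library 2. With OSTN counted among the secreted genes their median was 1.31, with 2 of 3 above 0. The genes of the liver plasma cluster, AHSG, HRG, KNG1 and FETUB, were below the limit.

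**Figure D4:**
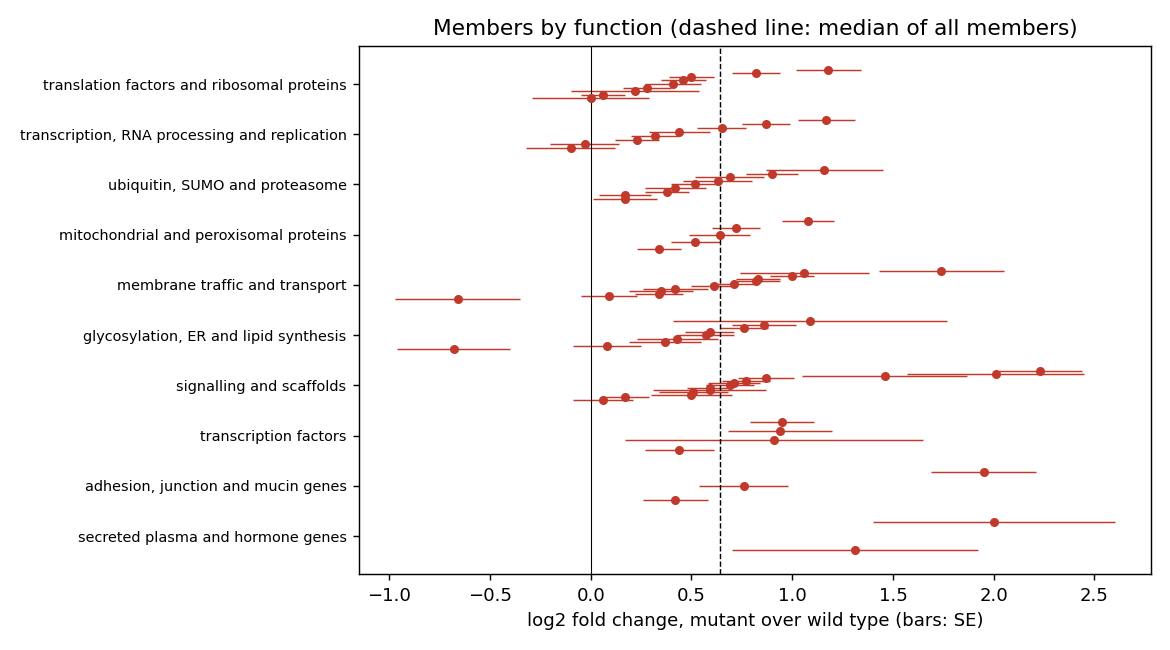
Each point is the log2 fold change (NIPBLmut over NIPBLwt) of a member, grouped by function, with bars of 1 SE and a dashed line at the median of all members. Group medians range from 0.38 for transcription, RNA processing and replication (8 genes) to 1.66 for secreted proteins (2 genes). The 2 secreted genes, THPO and MASP1, were under 2 CPM in every library. OSTN is drawn in the glycosylation, endoplasmic reticulum and lipid group.

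Many members share a complex or pathway with genes encoded outside the interval, and these partner genes did not enter the choice of the interval. The members did, so a gap between members and partners was largely fixed in advance. The partner lists were also drawn up with earlier results of these data known. Over the 49 tested partners the median log2 fold change was -0.21, with 7 above 0 and a range of -1.12 to 0.44. The 12 members they pair with had a median of 0.42, with 10 above 0. Both NIPBLmut libraries lay above both NIPBLwt libraries for 9 of the 12 members and for 3 of the 49 partners. They lay below for 1 of the members and for 27 of the partners. Over all tested genes the shares were 32.3% above and 30.8% below. Of the partners, 38 averaged at least 50 CPM, and protein-coding genes of that level outside the interval had a median of -0.15 with 31.9% above 0, against 14.3% of the partners.

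The medians of the partner groups were 0.05 for the other AP-2 subunits (4 genes) and -0.11 for the other replication factor C subunits (4). They were -0.08 for eIF2B (4) and -0.44 for 4 eIF4F genes, counting the relative EIF4G2 among them. They were -0.26 for RNA polymerase II (11), -0.28 for the proteasome base (8) and -0.24 for cap binding (2). Genes of iron uptake, storage, export and control (7) had -0.13, and those of mitochondrial fusion and OPA1 processing (4) had -0.27. MCCC2, the other subunit of methylcrotonyl-CoA carboxylase, was at 38.8 and 36.6 CPM in NIPBLmut and at 43.7 and 44.3 CPM in NIPBLwt, in contrast to the values of MCCC1. RFC3 was at 121 and 122 CPM in NIPBLmut and at 119 and 124 CPM in NIPBLwt, beside an RFC4 that did not overlap between groups. MFN1, counted among the fusion partners, lies on chromosome 3 itself at 179.3 Mb.

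Of the 49 partners, 2 were called lower in edgeR's quasi-likelihood test and 0 higher, against 2.1% and 3.71% of all tested genes. EIF4E, the cap-binding protein, was at 76.2 and 71.5 CPM in NIPBLmut and at 119 and 163 CPM in NIPBLwt, a log2 fold change of -0.93 (SE 0.18, adjusted p = 0.0489). OMA1, a protease that cuts OPA1, was at 29.3 and 28.1 CPM in NIPBLmut and at 43.0 and 50.1 CPM in NIPBLwt, a log2 fold change of -0.70 (SE 0.13, adjusted p = 0.0444). Both calls were lost without NIPBLmut library 1 (-0.98 for EIF4E and -0.73 for OMA1) and without NIPBLmut library 2 (-0.89 for EIF4E and -0.67 for OMA1). With all libraries kept, the adjusted p over the 9 alternatives ranged from 0.000204 to 0.0643 for EIF4E and from 0.00583 to 0.053 for OMA1. The call on both was lost with limma on TPM, and that on EIF4E also with RLE size factors.

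**Figure D5:**
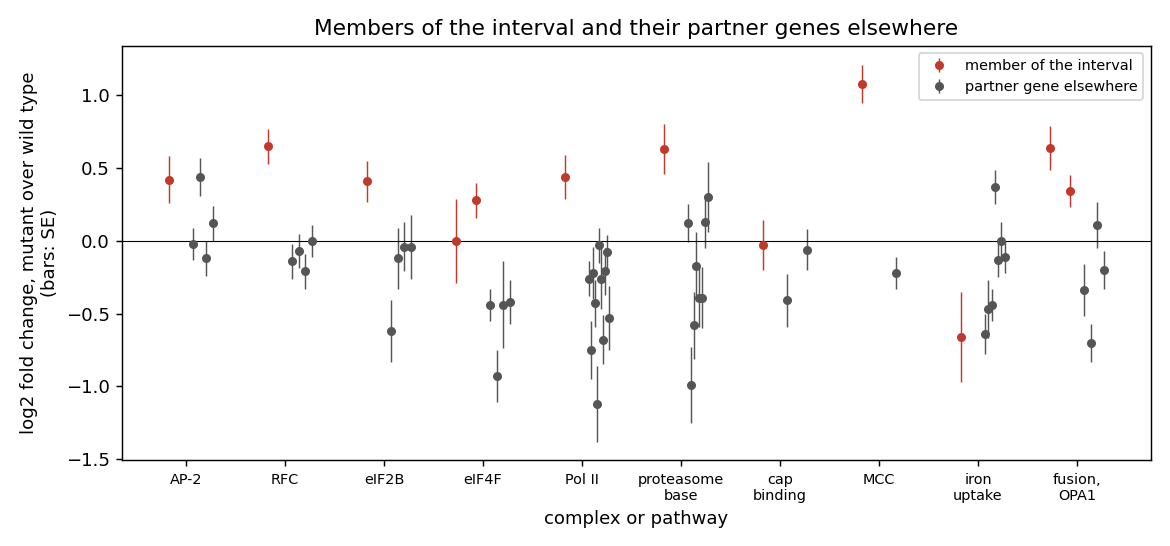
Log2 fold changes (NIPBLmut over NIPBLwt) are shown for members of the interval, on the left of each pair, and for the other genes of the same complex or pathway, on the right, with bars of 1 SE. The 12 members have a median of 0.42 and the 49 partners a median of -0.21, and TFRC is the member at -0.66.

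Genes of the interval that are not protein-coding lie outside the rule and were measured in the same libraries. Of 271 such genes, 133 had counts and 36 were tested. The median over these 36 was 0.55 on the log2 scale, 28 were above 0, and both NIPBLmut libraries lay above both NIPBLwt libraries for 23, against 25.6% of all tested genes that are not protein-coding. Of all such tested genes edgeR called 1.37% higher and 0.896% lower. In the interval LINC00888 was the 1 gene called, higher at 41.0 and 42.2 CPM in NIPBLmut and 13.4 and 12 CPM in NIPBLwt, a log2 fold change of 1.71 (SE 0.13). All 8 tested antisense RNAs were above 0 (median 1.24), but most were weak and many overlap members. Processed pseudogenes, copies made from spliced messenger RNAs of genes elsewhere, had lower values: of the 7 tested, 2 were above 0 and the median was -0.23. RPL4P4, a copy of a ribosomal protein gene whose reads cannot be told apart with certainty from those of its parent, was at 19.9 and 19.6 CPM in NIPBLmut and at 30.2 and 25.4 CPM in NIPBLwt. Over all 4465 tested genes that are not protein-coding the median was 0.00.

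Shared exon sequence was frequent in the interval. In the annotation, 45 members share exon bases with a gene on the other strand and 19 with a gene on the same strand. The 57 members with any such overlap had a median of 0.64, with 12 called higher (21.1%), and the 40 with none had a median of 0.71, with 17 called higher (42.5%). Over all tested genes 3.71% were called higher. AC131160.1 and AC068631.2 are annotated over the exons of neighbouring members (MAP6D1 and PARL for the first, DNAJB11 for the second). AC068631.2 was at 1.60 and 1.15 CPM in NIPBLmut and at 1.93 and 0 CPM in NIPBLwt, and no direction can be given for it.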

How the data were processed

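Total RNA depleted of ribosomal RNA was sequenced from 2 NIPBLmut and 2 NIPBLwt 293FT libraries, made with a directional kit per the labels' protocols. Per the file headers, the authors deposited RSEM-style gene tables with expected counts, TPM and effective lengths. STAR 2.7.3a, RSEM 1.3.1 and hg38 are named in the submitters' processing notes. For the role of each tool, the annotation release, the strand setting and any filters, the sources used here give no statement. Of 58174 gene IDs, 57836 were found in GENCODE 29, which supplied names, types and positions.

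Expected counts as deposited were made whole by rounding. The test was edgeR 4.0.16 (R 4.3.3): TMM scaling, filterByExpr by group, robust quasi-likelihood fit, group as the only term, Benjamini-Hochberg adjustment over the 18984 genes that passed, threshold 0.05. All 97 members passed. The SE is the log2 fold change divided by the square root of F. CPM values are scaled by TMM. Log2 values of single libraries used a prior count of 2. The steps were tested on simulated data, drawn with the same spread in both groups. The unequal spread of the real NIPBLwt and NIPBLmut libraries was therefore not covered. Alternatives were DESeq2 1.42.0, limma 3.58.1 on log2(TPM + 1) from the deposited TPM values, other scalings and filters, effective lengths, a replicate block and leaving out each library. Libraries held 31545743 to 33161120 counts, so counting error is small for most members, and with 2 libraries a group the spread between libraries limits precision.

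The members and gene lists were chosen with earlier results of these data known. Members named were drawn from the 10 highest and 10 lowest fold changes and the listed genes, each among members averaging 5 CPM or more. The 10 highest in TPM and genes at the limits of the interval were added. Not all of these are described: MELTF, among the 10 highest, and several listed genes such as UBXN7 and CLCN2 are left out. LIPH, CLDN1, LAMP3, VWA5B2, BCL6, ETV5, THPO, MASP1, AC068631.2 and the noncoding genes were named after their values were seen. Motifs were searched in RefSeq windows (GRCh38.p14) of the 250 bases before each start.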

Additional observations from a re-analysis of the deposited data

How the results depend on the processing

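The member median stayed above 0 under all 13 alternatives. It was 0.68 with limma on TPM, 0.62 with no filter, 0.66 with the stricter filter, 0.81 with total count scaling, 0.73 with upper quartile scaling, and 0.63 to 0.66 with 1 library left out. Over members without exon overlap, an alternative chosen after seeing the data, it was 0.71. Total count scaling moved the median of all tested genes to 0.17 and TPM to 0.12, so members stood 0.65 and 0.56 above it. Members called higher numbered 29, 44 with DESeq2, 46 with total count scaling, and 6 to 85 with 1 library left out, against 3.71%, 6.44%, 5.86% and 1.7% to 29.8% of all tested genes. Members called lower numbered 0, and 0 to 5 with 1 library left out. The noncoding median of 0.55 was 0.27 on TPM, 0.72 with total count scaling and 0.42 to 0.74 with 1 library left out. The causes of these moves were not tested. With the replicate number as a block, 40 members were called higher (7.74% of all tested genes were), 0 lower, and the median was 0.65. Same-numbered libraries share only a number: the correlation of their deviations from the group means was -0.06, over 2 pairs. Of the 29 called members, 22 stayed called in all 9 alternatives that keep every library. The sign changed in at least 1 alternative for 11 members, none of them called with all libraries: TRA2B, NCBP2, EIF4G1, PAK2, PCYT1A, RUBCN, MB21D2, LSG1, FBXO45, AC131160.1 and AC068631.2. Depth leaves members below 2 CPM, such as DGKG and NRROS, with few counts a library. The weak agreement of the NIPBLwt libraries limits every call.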
